A study of Mus musculus with 32 samples.

Results

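Elastic fibre and fibulin genes were examined in mouse embryonic fibroblasts. The 10 genes chosen by symbol encode proteins that build or shape elastic fibres and the microfibrils around them: Fbn1, Fbn2, Eln, Fbln1, Fbln2, Fbln5, Efemp1, Efemp2, Ltbp1 and Ltbp2. Of these, 9 were among the 12791 genes listed for cells in 10 mM glucose and the same 9 among the 12053 listed for cells in 1 mM glucose, with 11931 genes in both. Efemp1 (fibulin-3) was in neither list and was not analysed here.

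Elastic fibres consist of a core of cross-linked elastin laid down on a scaffold of fibrillin microfibrils. Fibrillins form the microfibrils, short fibulins carry tropoelastin to them and bring it together with lysyl oxidases, and latent TGF-beta binding proteins tether the inactive growth factor to the same scaffold. Fibroblasts and smooth muscle cells are the main makers of this matrix, and elastin itself is most strongly produced late in development and around birth.

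All cells carried a knockout of endogenous Acly, the gene of ATP-citrate lyase, which makes acetyl-CoA from citrate outside mitochondria. KO cells expressed the fluorescent protein mCherry alone, WT cells expressed mCherry-tagged human ACLY, Cyto cells the same protein with a nuclear export sequence, and Nuc cells the same protein with extra nuclear import sequences. RNA was sequenced after 24 h in 10 mM or in 1 mM glucose (DMEM, 10% calf serum), in 4 libraries per construct and medium. Cyto in 10 mM glucose had 3 analysed libraries (numbers 1, 2 and 4), because the submitters set number 3 aside as an anomaly. Neither separate cultures for the libraries of a group nor more than 1 derivation of each line is stated in the labels, so the p-values measure the spread between these samples, which may be technical.

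Expression is given as the deposited log2 normalized value, close to log2 CPM (read counts scaled to a common library size). Each medium has its own table and its own batch (batch 2 for 10 mM and batch 1 for 1 mM glucose). Levels are therefore compared within a medium, and medium and batch cannot be told apart. Sequencing depth is unknown, since the values give no read counts. A gene was called changed at an adjusted p under 0.05 by limma (Benjamini-Hochberg over the whole table). The Acly row, which checks the labels, stood at 5.87 ± 0.21 (SD, n = 4) in KO cells in 10 mM glucose and at 10.21 ± 0.06 in WT, 9.74 ± 0.13 in Cyto and 9.12 ± 0.12 in Nuc cells. With 1 mM glucose the Acly means were 5.35 in KO, 10.57 in WT, 10.5 in Cyto and 8.97 for Nuc, with no call between WT and Cyto (adjusted p = 0.425). In 10 mM glucose Cyto minus WT was -0.47 (0.00157), a call lost under 1 of 17 alternatives. Nuc minus Cyto was -0.62 (0.000142) in 10 mM and -1.53 (2.46e-11) in 1 mM glucose. Nuc minus WT was -1.09 (1.84e-07) and -1.6 (1.13e-11). The constructs thus differed in the level of the Acly row as well as in location, and these cannot be told apart. The sources used here do not say whether that row counts the human sequence.

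Of 10 fibroblast markers 9 were listed, all but Fap, with a summed level of 17100 to 35600 CPM over the libraries in 10 mM and 19000 to 44600 in 1 mM glucose. In 10 mM glucose that sum was 17100 to 19100 in KO, 30800 to 31200 in WT, 23500 to 25900 in Cyto and 32800 to 35600 in Nuc cells, and in 1 mM glucose it was 26200 to 30800, 41200 to 44600, 19000 to 22200 and 32700 to 37900. Collagen and Vim transcripts make up most of it, and not every marker followed it: Thy1 had a log2 mean of 1.88 in KO and 1.5 in WT and Dcn of 3.5 and 3.3 in 10 mM glucose. Endothelial and macrophage markers summed to at most 11.7 CPM in any library. Of 6 epithelial markers 1 was listed, Krt19, at 21.9 to 50.4 CPM in 10 mM glucose, and in 1 mM glucose at 3.73 to 4.86 in Cyto and 27.6 to 36.3 in Nuc cells. Of 6 chondrocyte markers 3 were listed, with a sum of at most 89.8 CPM in 10 mM and 167 in 1 mM glucose. Smooth muscle markers, with Acta2, Tagln and Des listed in both media, were not at 0: they summed to 1620 to 1880 CPM in KO, 2650 to 2940 in WT, 1800 to 1910 in Cyto and 2740 to 3330 in Nuc cells in 10 mM glucose. Acta2 makes up most of that sum (log2 mean 10.72 in KO and 11.43 in WT), while Tagln (5.79 and 4.59) and Des (3.46 and 2.81) were at lower means in WT than in KO. With 1 mM glucose the smooth muscle sum ran from 925 to 1280 in Cyto and from 2130 to 2390 in Nuc cells. The part of these markers in the results was not tested. In bulk RNA, fewer cells of a type and less RNA per cell cannot be told apart. In 1 mM glucose WT number 2 stood apart. Its deviation from its group mean had an SD of 0.401 over genes, against at most 0.247 in the other libraries of that medium, and a correlation of -0.52 with log transcript length, against -0.18 to 0.38. In 10 mM glucose KO number 1 had an SD as large (0.398, with a correlation of 0.24) and Nuc number 4 one of 0.367, and the libraries numbered 4 had correlations of -0.38 to -0.09. Some results that these libraries move are given with and without them, and the others enter only the totals over alternatives.

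Per kilobase of transcript in KO cells in 10 mM glucose, Fbln2 was the most abundant of the 9 genes (log2 level per kilobase 8.10), followed by Efemp2 (6.48), Fbln1 (5.22), Ltbp1 (5.19), Fbln5 (4.92) and Fbn1 (3.03). Ltbp2 (1.73), Eln (-0.56) and Fbn2 (-2.09) were the scarcest. Transcripts of elastin were thus near the lower end in these cells while fibulin-2 transcripts were abundant.

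Most of the 9 genes differed between KO cells and cells with ACLY, and not in 1 direction. Compared with KO in 10 mM glucose, 6 of 9 were called in WT, where 40.8% of all genes were called. Of these 4 were higher (20.6% of all genes) and 2 lower (20.2%). Cyto had 8 calls (38.5% of all genes), 4 higher (19.6%) and 4 lower (18.9%), and Nuc had 7 (45.3%), 5 higher (22.7%) and 2 lower (22.7%). At 1 mM glucose WT had 7 calls (58.2% of all genes), 5 higher (29.7%) and 2 lower (28.5%). There Cyto had 8 (64.7%), 4 higher (31.7%) and 4 lower (33%), and Nuc had 7 (60%), 4 higher (30.5%) and 3 lower (29.5%). The calls lay above the share of all genes in each comparison with KO, though for 9 genes the gap in 1 mM glucose is small and was not tested. Under alternatives the WT count in 1 mM glucose went as low as 5. The Cyto count in 10 mM glucose went as low as 5 when 1 library was left out. The median size of the log2 fold change, regardless of sign, was 0.70 in WT, 1.1 in Cyto and 0.95 for Nuc over the 9 genes in 10 mM glucose, beside 0.29, 0.29 and 0.31 for all genes. The signed medians were 0.19, 0.09 and 0.84, beside -0.001, -0.003 and 0 for all genes. The comparisons with KO share the KO libraries. Fbn1 and Fbln5 rose in all 6 of them, and 4 genes (Fbn2, Fbln2, Efemp2 and Ltbp2) were called higher in some and lower in others. The shares of all genes with these patterns were not counted, so neither pattern is shown to be particular to these genes.

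**Figure D1:**
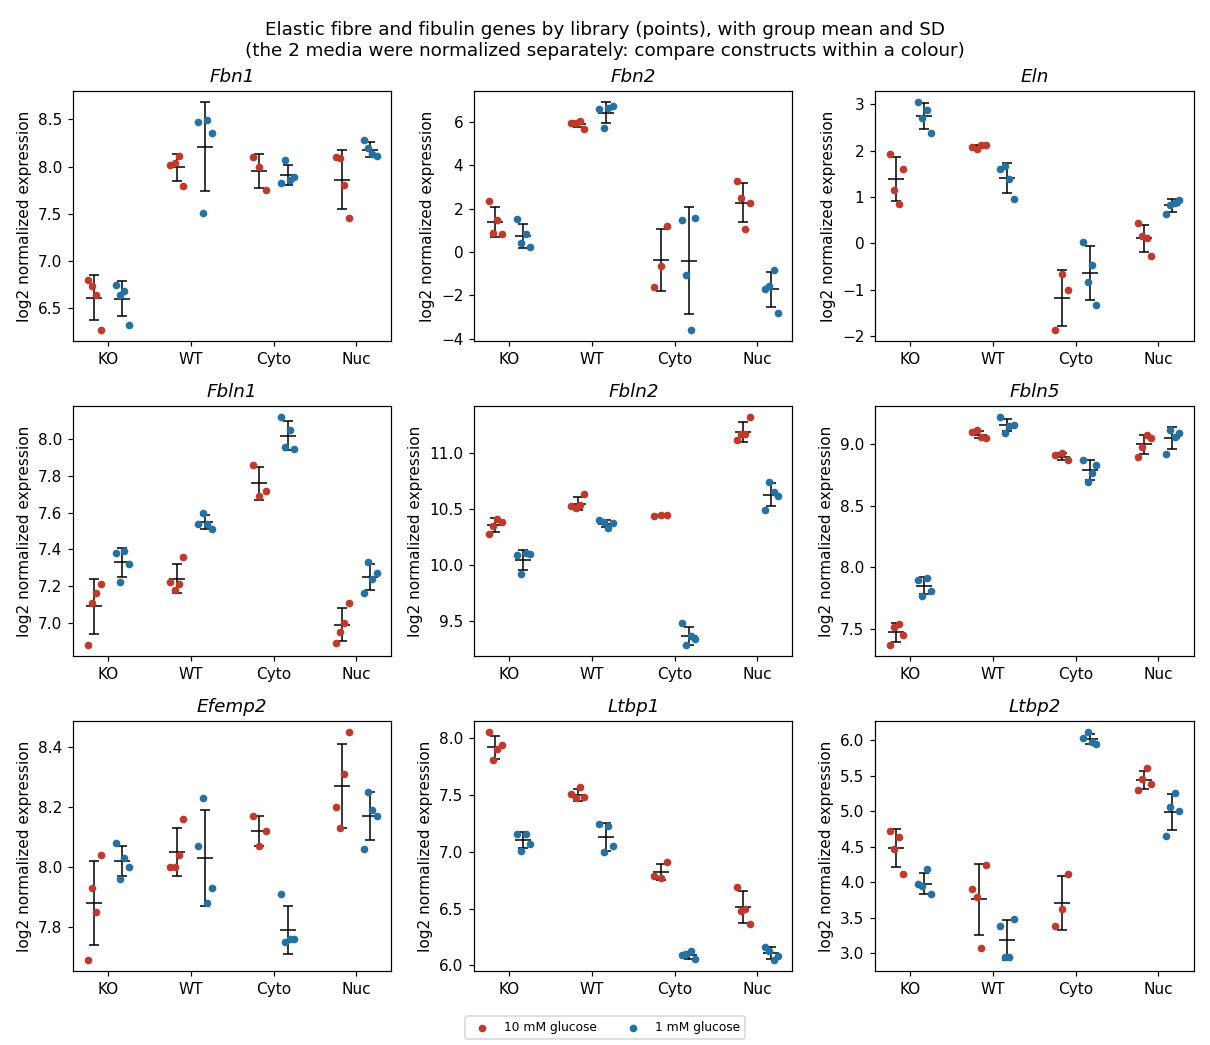
Log2 normalized expression of the 9 listed genes (vertical axes) in each library (points) by construct, red for 10 mM and blue for 1 mM glucose, with bars for the group mean and SD. Fbn1 and Fbln5 are lowest in the 4 KO libraries of either medium, Fbn2 is highest in WT, and Ltbp1 falls in Cyto and Nuc.

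Fbn1 encodes fibrillin-1, the main structural protein of microfibrils, and Fbln5 encodes fibulin-5, which binds tropoelastin, integrins and lysyl oxidase-like enzymes during fibre assembly. Since these were the 2 genes higher than KO under every construct in both media, the 250 bases before their RefSeq transcription starts are shown (GRCm38.p6, written 5′ to 3′ in the direction of transcription). Capitals mark matches to a GC box (GGGCGG) or a SMAD box (CAGAC) on either strand. Fbn1 is at chr2:125506439-125506688, the first Fbln5 start at chr12:101819120-101819369 and the second at chr12:101818485-101818734, all on the minus strand.
Fbn1: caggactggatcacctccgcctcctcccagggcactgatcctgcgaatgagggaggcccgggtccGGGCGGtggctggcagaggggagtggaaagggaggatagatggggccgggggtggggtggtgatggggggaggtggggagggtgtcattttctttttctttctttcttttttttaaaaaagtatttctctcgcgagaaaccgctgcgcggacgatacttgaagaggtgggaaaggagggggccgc
Fbln5 start 1: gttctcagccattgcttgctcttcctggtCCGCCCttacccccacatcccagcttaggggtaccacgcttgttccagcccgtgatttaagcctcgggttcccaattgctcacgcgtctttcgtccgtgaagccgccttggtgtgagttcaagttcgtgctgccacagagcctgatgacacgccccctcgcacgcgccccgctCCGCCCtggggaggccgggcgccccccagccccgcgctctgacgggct
Fbln5 start 2: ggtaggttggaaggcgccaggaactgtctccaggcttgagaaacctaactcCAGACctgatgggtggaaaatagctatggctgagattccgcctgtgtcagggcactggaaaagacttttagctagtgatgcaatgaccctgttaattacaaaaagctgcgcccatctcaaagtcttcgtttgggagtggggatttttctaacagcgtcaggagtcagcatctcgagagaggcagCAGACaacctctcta
The Fbn1 window held 1 GC box, with its first base 185 bases before the start, and was 59.2% G and C. The first Fbln5 window held 2 GC boxes (65.2% G and C), and the second held none but had 2 SMAD boxes (49.6% G and C). Among 32851 RefSeq windows of this length, 32.7% held a GC box and 42.2% a SMAD box, so both are common. No window of the 3 held an AP-1 site (TGANTCA, in 6.7% of all windows), a TATA box (TATAAA, 12.4%) or a TEAD site (CATTCC, 12.6%). No match overlapped another, and a match is a description of the sequence alone.

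In 10 mM glucose the log2 expression of Fbn1 was 6.80, 6.73, 6.64 and 6.27 in the 4 KO libraries and 8.02, 8.04, 8.11 and 7.79 in WT. It was 8.10, 8.0 and 7.75 in Cyto and 8.10, 8.09, 7.80 and 7.45 in Nuc. Every library with ACLY lay above every KO library. The log2 fold change from KO was 1.38 ± 0.14 (SE; adjusted p = 9.43e-07) in WT, 1.34 ± 0.15 (3.22e-06) in Cyto and 1.25 ± 0.14 (1.78e-06) in Nuc. No difference among the 3 ACLY groups was called. Nuc minus Cyto was -0.09 (adjusted p = 0.7), Cyto minus WT -0.04 (0.877) and Nuc minus WT -0.13 (0.532). Removing each library's length trend made the last a call (Fbn1 -0.26, adjusted p = 0.00667). Without the libraries numbered 4 the Fbn1 fold changes from KO in that medium were 1.33, 1.33 and 1.27.

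At 1 mM glucose Fbn1 again separated KO from the rest. Its log2 expression was 6.74, 6.64, 6.68 and 6.32 in KO, 8.47, 7.51, 8.49 and 8.35 in WT, 7.83, 8.07, 7.86 and 7.89 in Cyto, and 8.28, 8.20, 8.13 and 8.11 for Nuc. WT number 2, at 7.51, lay below all other libraries with ACLY in that medium. The log2 fold change from KO was 1.61 ± 0.16 in WT (adjusted p = 2.87e-07), 1.32 ± 0.16 in Cyto (1.72e-06) and 1.58 ± 0.16 in Nuc (2.59e-07). Nuc minus Cyto was 0.27 (adjusted p = 0.201) with no overlap of the groups, and it was called under 3 of 18 alternatives. With WT number 2 in the fit Cyto minus WT was -0.29 (adjusted p = 0.135) and Nuc minus WT -0.03 (0.91). Without it Fbn1 was lower in Cyto than in WT by a log2 fold change of -0.53 (adjusted p = 4.19e-05) and in Nuc by -0.26 (0.019), and the fold change of WT from KO was 1.84. None of the 4 differences of Fbn1 fold changes between media was called. After removal of length trends 3 of them were, at 0.34 for WT minus KO (adjusted p = 0.00595), 0.32 for Nuc minus KO (0.00713) and 0.34 in Nuc minus Cyto (0.00953).

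Fbln5 varied little among the libraries of a group. Its log2 expression in 10 mM glucose was 7.37, 7.51, 7.54 and 7.45 in KO, 9.10, 9.12, 9.06 and 9.05 in WT, 8.91, 8.93 and 8.87 in Cyto, and 8.90, 8.98, 9.08 and 9.05 for Nuc. The 1 mM glucose values were 7.90, 7.77, 7.91 and 7.81 in KO, 9.22, 9.09, 9.15 and 9.16 in WT, 8.87, 8.69, 8.77 and 8.83 in Cyto, and 8.92, 9.12, 9.06 and 9.09 for Nuc. The KO libraries lay below all others in both media. The log2 fold change from KO in 10 mM glucose was 1.61 ± 0.05 in WT, 1.44 ± 0.06 in Cyto and 1.54 ± 0.05 in Nuc, and in 1 mM glucose it was 1.31 ± 0.06 (adjusted p = 1.5e-11), 0.94 ± 0.06 (3.64e-10) and 1.2 ± 0.06 (2.6e-11). All 3 were smaller in 1 mM than in 10 mM glucose, by differences of -0.31 ± 0.07 (adjusted p = 0.0024), -0.49 ± 0.08 (6.2e-06) and -0.34 ± 0.07 (0.000606); the first was no longer called after removal of length trends (-0.27, 0.052). Fbln5 was lower in Cyto than in Nuc in 1 mM glucose (Nuc minus Cyto 0.26 ± 0.06, adjusted p = 0.00167), and in 10 mM glucose that difference was 0.10 (0.197). Cyto minus WT was -0.37 (adjusted p = 4.4e-05) in 1 mM and -0.18 (0.0235) in 10 mM glucose, and the latter was lost under 6 of 17 alternatives.

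**Figure D2:**
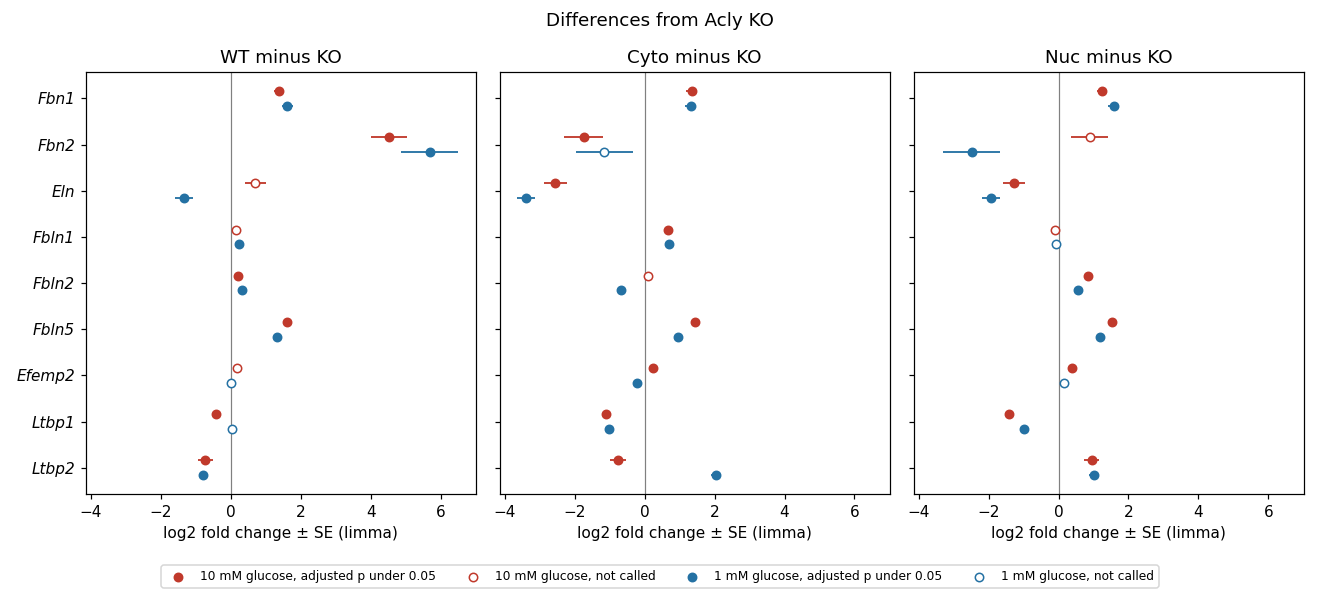
Log2 fold change from Acly KO (horizontal axes, points with SE bars) for the 9 genes under WT, Cyto and Nuc, red for 10 mM and blue for 1 mM glucose, filled where the limma adjusted p was under 0.05. Fbn1 and Fbln5 are filled and to the right of 0 in every panel, and Fbn2 reaches 4.52 and 5.68 in WT.

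Fbn2, which encodes fibrillin-2, the fibrillin of developing microfibrils, was high in WT and low in the other groups. Its log2 expression in 10 mM glucose was 5.94, 5.94, 6.03 and 5.69 in WT, but 2.35, 0.89, 1.45 and 0.81 in KO, -1.63, -0.67 and 1.19 in Cyto, and 3.25, 2.50, 1.06 and 2.25 for Nuc. The 1 mM glucose values were 6.61, 5.72, 6.62 and 6.75 in WT, 1.5, 0.41, 0.83 and 0.23 in KO, 1.49, -1.07, -3.59 and 1.55 in Cyto, and -1.71, -1.56, -0.83 and -2.82 for Nuc. In each medium the 4 WT libraries lay above all others. The value of -3.59 is the lowest that any gene has in its table, and many values outside WT were under 0, which is under 1 CPM, so the sizes of the differences there are poorly fixed.

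The log2 fold change of Fbn2 from KO in WT was 4.52 ± 0.52 in 10 mM (adjusted p = 3.63e-06) and 5.68 ± 0.82 in 1 mM glucose (1.72e-05), rank 6 and rank 4 from the highest of all genes. Against WT, Fbn2 fell by 6.27 on the log2 scale in Cyto in 10 mM glucose (adjusted p = 3.97e-07), it fell by 6.83 in Cyto in 1 mM glucose (2.74e-06) and it fell by 8.16 in Nuc in that medium (7.96e-07). In each of these 3 comparisons no other gene of the table had a lower value. In Nuc in 10 mM glucose it fell by 3.63 (adjusted p = 6.14e-05). With 1 added on the linear scale, which shrinks low values, the falls were -4.98, -5.3, -6.03 and -3.35, all still called. Without WT number 2 in 1 mM glucose Fbn2 was at 5.92 above KO, -7.06 in Cyto against WT and -8.39 in Nuc against WT.

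Outside WT, Fbn2 was low and its differences held less well. Cyto minus KO was -1.74 ± 0.56 in 10 mM glucose (adjusted p = 0.0208) and was lost with 1 added on the linear scale (-0.93, 0.0557), without KO number 1 (-1.42, 0.0625), without Cyto number 1 (-1.11, 0.144) and without Cyto number 2 (-1.6, 0.0728). The 1 mM value of Cyto minus KO was -1.15 ± 0.82 (0.229). Nuc minus KO was 0.89 ± 0.52 (0.177) in 10 mM and -2.48 ± 0.82 (0.0152) in 1 mM glucose, the latter -2.11 (0.0511) without Nuc number 4. The 2 values differed between media by -3.37 ± 1.04 (adjusted p = 0.012). Nuc minus Cyto went from 2.63 ± 0.56 (0.00183) in 10 mM to -1.33 ± 0.82 (0.211) in 1 mM glucose, a difference of -3.96 ± 1.08 (0.00946; 0.0502 in a fit of these groups alone). Without Cyto number 3 in 1 mM glucose, the library at the lowest value, Nuc minus Cyto in that medium was -2.39 (adjusted p = 0.00361).

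Eln encodes tropoelastin, the soluble precursor of elastin. Its log2 expression in 10 mM glucose was 1.92, 1.15, 0.86 and 1.61 in KO, 2.08, 2.04, 2.12 and 2.13 in WT, -1.86, -0.67 and -1.0 in Cyto, and 0.45, 0.15, 0.12 and -0.27 for Nuc. The 1 mM glucose values were 3.04, 2.70, 2.87 and 2.39 in KO, 1.61, 1.67, 1.38 and 0.96 in WT, 0.04, -0.83, -0.46 and -1.32 in Cyto, and 0.63, 0.82, 0.88 and 0.94 for Nuc. No pair of constructs overlapped in either medium, and Cyto was lowest in both. Of the 12 comparisons 10 were called, all but WT minus KO in 10 mM glucose and Nuc minus WT in 1 mM glucose. The latter was -0.59 ± 0.25 (adjusted p = 0.0759). The share of all genes without such overlap was not counted. WT was the highest group in 10 mM glucose and KO the highest in 1 mM glucose.

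From KO, Eln fell in Cyto by 2.56 on the log2 scale in 10 mM (SE 0.33, adjusted p = 1.48e-05) and by 3.39 in 1 mM glucose (SE 0.25, 5.12e-09). In Nuc it fell by 1.27 (adjusted p = 0.00294) and by 1.93 (5.53e-06). WT minus KO was 0.70 ± 0.31 in 10 mM glucose (adjusted p = 0.0798) and -1.34 ± 0.25 in 1 mM glucose (0.00027), and the difference between media was -2.04 ± 0.39 (0.000244). With 1 added on the linear scale the 10 mM value of Eln was called (0.53, adjusted p = 0.0205), so the sign of WT minus KO differed between media under that setting with both values called. Between constructs, Eln was higher in Nuc than in Cyto by 1.29 ± 0.33 in 10 mM (adjusted p = 0.00735) and 1.46 ± 0.25 in 1 mM glucose (0.000212), though the adjusted p of the former was 0.0589 in a fit of these groups alone. It was lower in Cyto than in WT by -3.27 ± 0.33 (1.8e-06), rank 15 from the lowest of all genes, and by -2.05 ± 0.25 (4.17e-06). With 1 added on the linear scale these Eln values shrank and were still called: -1.32 and -2.22 for Cyto minus KO, -0.8 and -1.48 for Nuc minus KO, -1.85 and -1.14 for Cyto minus WT, and 0.52 (adjusted p = 0.0427) and 0.73 for Nuc minus Cyto, in 10 mM and 1 mM glucose.

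Fbln1, Fbln2 and Efemp2 encode fibulin-1, fibulin-2 and fibulin-4. Fibulin-1 and fibulin-2 bind fibronectin, elastin and basement membrane proteins, and fibulin-4 is needed for lysyl oxidase to reach elastin. Their group means spanned a smaller range than those of Fbn2 and Eln in both media.

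Fbln1 was highest in Cyto. In 10 mM glucose its log2 expression was 7.86, 7.69 and 7.72 in Cyto, 6.88, 7.11, 7.16 and 7.21 in KO, 7.22, 7.18, 7.21 and 7.36 in WT, and 6.89, 6.95, 7.0 and 7.11 for Nuc. The 1 mM glucose values were 8.12, 7.96, 8.05 and 7.95 in Cyto, 7.38, 7.22, 7.39 and 7.32 in KO, 7.54, 7.60, 7.54 and 7.51 in WT, and 7.16, 7.33, 7.24 and 7.27 in Nuc. The Cyto libraries lay above all others in both media. Cyto minus KO was 0.67 ± 0.08 in 10 mM (adjusted p = 7.5e-06) and 0.69 ± 0.06 in 1 mM glucose (1.4e-08). Nuc minus Cyto was -0.77 in both media, with adjusted p = 2.3e-06 in 10 mM and 1.5e-08 in 1 mM glucose. Nuc minus KO was -0.10 (0.302) and -0.08 (0.244). None of the 4 differences of Fbln1 fold changes between media was called.

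Fbln2 was highest in Nuc. In 10 mM glucose its log2 expression was 11.12, 11.17, 11.17 and 11.32 in Nuc, 10.28, 10.35, 10.41 and 10.39 in KO, 10.53, 10.51, 10.54 and 10.64 in WT, and 10.44, 10.45 and 10.45 in Cyto. At 1 mM it was 10.49, 10.74, 10.65 and 10.62 in Nuc, 10.09, 9.92, 10.11 and 10.10 in KO, 10.40, 10.39, 10.33 and 10.38 in WT, and 9.48, 9.29, 9.37 and 9.34 in Cyto. Cyto lay between KO and WT in 10 mM glucose and below all other groups in 1 mM glucose. Cyto minus KO was 0.09 (adjusted p = 0.235) in 10 mM and -0.69 ± 0.06 (4.37e-08) in 1 mM glucose, a difference of -0.77 ± 0.08 (7.56e-09). Nuc minus Cyto was 0.75 ± 0.06 (4.7e-08) and 1.26 ± 0.06 (1.2e-10), a difference of 0.51 ± 0.08 (2.72e-05). Nuc minus KO was 0.84 ± 0.05 (2.0e-09) and 0.57 ± 0.06 (5.1e-07). WT minus KO was 0.19 ± 0.05 (0.00624) and 0.32 ± 0.06 (0.000288), but under quantile normalization Fbln2 was at -0.12 (adjusted p = 0.0136) and -0.02 (0.845), so its direction depends on how libraries are scaled.

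Efemp2 had the smallest range of group means of the 9 genes in both media, 0.40 and 0.37. Its log2 group means in 10 mM glucose were 7.88 in KO, 8.05 in WT, 8.12 in Cyto and 8.27 for Nuc, and in 1 mM glucose 8.02, 8.03, 7.79 and 8.17. Single libraries ran from 7.69 to 8.45 in 10 mM and from 7.75 to 8.25 in 1 mM glucose, and in 4 of 12 comparisons the groups did not overlap. Nuc minus KO was 0.40 in 10 mM glucose (adjusted p = 5.1e-04) and 0.15 in 1 mM glucose (0.083). Cyto minus KO changed sign, from 0.25 (0.029) to -0.22 (0.0103), with a difference of -0.47 ± 0.11 (0.00096). The first of these calls was lost under 6 of 17 alternatives, among them quantile normalization (Efemp2 0.17, adjusted p = 0.12).

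Ltbp1 and Ltbp2 encode latent TGF-beta binding proteins. The Ltbp1 protein holds latent TGF-beta in the matrix, whereas the Ltbp2 protein does not bind latent TGF-beta and attaches to fibrillin-1 microfibrils and to fibulin-5. In these cells the 2 genes had different orders of constructs.

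Ltbp1 was lower in Cyto and Nuc than in KO and WT. Its log2 expression in 10 mM glucose was 8.05, 7.81, 7.90 and 7.94 in KO, 7.51, 7.47, 7.57 and 7.48 in WT, 6.79, 6.77 and 6.91 in Cyto, and 6.69, 6.48, 6.50 and 6.36 for Nuc. The 1 mM glucose values were 7.16, 7.01, 7.16 and 7.07 in KO, 7.24, 7.0, 7.23 and 7.05 in WT, 6.09, 6.10, 6.13 and 6.06 in Cyto, and 6.16, 6.13, 6.05 and 6.08 for Nuc. KO and WT overlapped in 1 mM glucose and not in 10 mM glucose, and both lay above Cyto and Nuc in each medium. From KO, Ltbp1 fell by 1.1 in Cyto and by 1.42 in Nuc on the log2 scale in 10 mM glucose (adjusted p = 2.1e-08 and 2.1e-10), and by 1.01 and 0.99 in 1 mM glucose (3.8e-10 and 5.69e-10). Against WT it fell by 0.68 in Cyto and by 1.0 in Nuc in 10 mM, and by 1.04 and 1.02 in 1 mM glucose. WT minus KO was -0.42 ± 0.07 (adjusted p = 0.000198) in 10 mM and 0.03 ± 0.06 (0.667) in 1 mM glucose, a difference of 0.45 ± 0.09 (0.000485). Nuc minus Cyto was -0.31 ± 0.08 (0.00526) in 10 mM glucose, or -0.22 (0.0593) without the libraries numbered 4, and 0.01 (0.883) in 1 mM glucose.

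Ltbp2 changed its order of constructs between the media. Its log2 expression in 10 mM glucose was 4.72, 4.47, 4.64 and 4.11 in KO, 3.91, 3.79, 3.07 and 4.25 in WT, 3.38, 3.63 and 4.12 in Cyto, and 5.30, 5.45, 5.61 and 5.39 for Nuc. With 1 mM glucose it was 3.97, 3.95, 4.18 and 3.83 in KO, 3.39, 2.95, 2.95 and 3.48 in WT, 6.03, 6.11, 5.98 and 5.95 in Cyto, and 4.65, 5.06, 5.26 and 5.01 for Nuc. Nuc was the highest group in 10 mM glucose. In 1 mM glucose Cyto was above all others and Nuc came next. Cyto minus KO went from -0.77 ± 0.23 (adjusted p = 0.0136) to 2.03 ± 0.13 (1.09e-09), a difference of 2.81 ± 0.27 (2.22e-09). Nuc minus Cyto went from 1.73 ± 0.23 (2.65e-05) to -1.02 ± 0.13 (1.19e-05), a difference of -2.75 ± 0.27 (1.54e-08). Both changes of sign had calls in each medium, though without Cyto number 1 in 10 mM glucose Cyto minus KO of Ltbp2 there was -0.61 (adjusted p = 0.0806). Nuc minus KO stayed at 0.95 ± 0.21 (0.00158) and 1.01 ± 0.13 (6.37e-06), and WT minus KO at -0.73 ± 0.21 (0.012) and -0.79 ± 0.13 (9.43e-05).

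**Figure D3:**
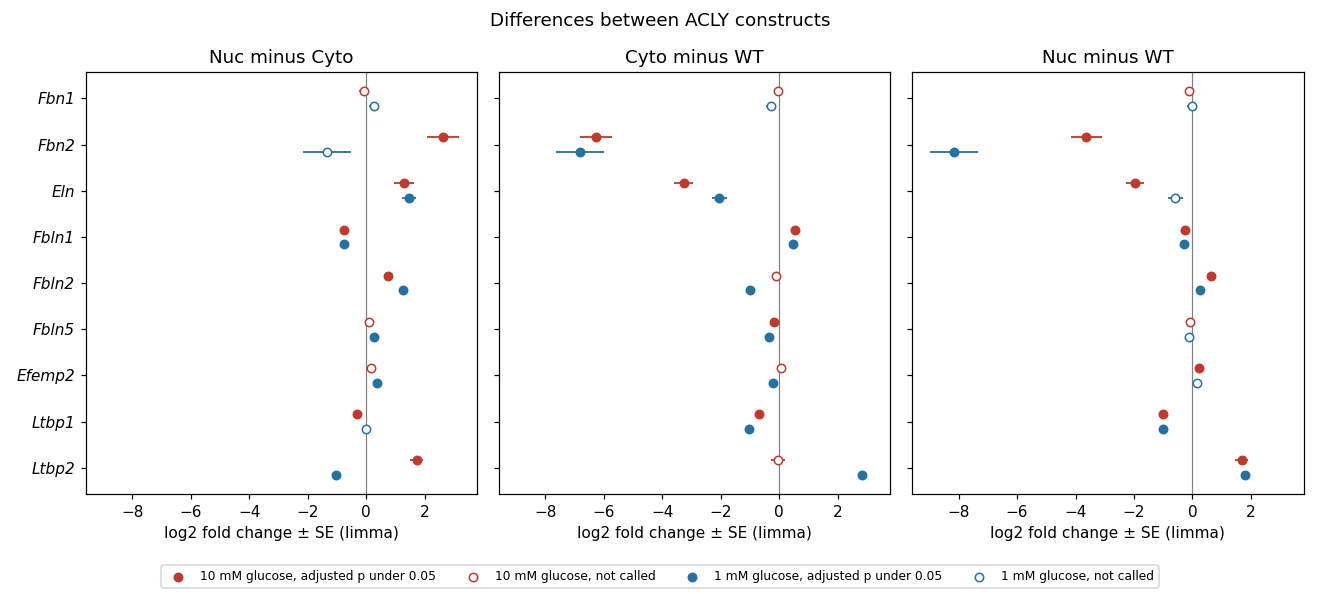
Log2 differences between the ACLY constructs (horizontal axes, points with SE bars) for the 9 genes, red for 10 mM and blue for 1 mM glucose, filled where the limma adjusted p was under 0.05. Fbn2 lies far to the left of 0 in both comparisons with WT, and Ltbp2 lies on opposite sides of 0 in the 2 media for Nuc minus Cyto (1.73 and -1.02).

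Set against each other, the 2 localized forms differed in 6 of 9 genes in 10 mM glucose (31% of all genes called), with 4 higher in Nuc than in Cyto (15.3% of all genes) and 2 lower (15.7%). They differed in 6 of 9 in 1 mM glucose too (41%), again with 4 higher (20.4%) and 2 lower (20.5%). Eln, Fbln1, Fbln2 and Ltbp2 were called in both media, Ltbp2 with opposite signs. Cyto differed from WT in 5 genes in 10 mM glucose (31.5% of all genes called), 1 higher (15.9%) and 4 lower (15.6%), and in 8 in 1 mM glucose (53.2%), 2 higher (25.7%) and 6 lower (27.5%). Nuc differed from WT in 7 genes in 10 mM glucose (28.8%), 3 higher (15%) and 4 lower (13.8%), and in 5 in 1 mM glucose (39.1%), 2 higher (19.7%) and 3 lower (19.4%). In 10 mM glucose the calls of Efemp2 (0.22, adjusted p = 0.0409) and Fbln1 (-0.25, 0.0184) were lost under 6 and 2 of 18 alternatives. For Nuc minus WT in 1 mM glucose the count was 7 without WT number 2 and 8 after removal of length trends, with Fbn1 and Efemp2 added under both. The difference between media was called for 3 of 9 genes for WT minus KO (26.2% of all genes called), 1 higher in 1 mM glucose (13.5%) and 2 lower (12.7%). It was called for 4 genes for Cyto minus KO (44.7%), 1 higher (21.5%) and 3 lower (23.2%), and for 4 for Nuc minus KO (36.5%), 1 higher (17.8%) and 3 lower (18.7%). For Nuc minus Cyto it was called for 4 genes (19%), 2 higher (9.47%) and 2 lower (9.48%). The shares for the differences of Cyto and Nuc from KO were near those of all genes. A batch effect that is not the same for every construct would remain in these differences.

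The genes whose levels followed these most closely over libraries were found for the 4 genes with the largest range of group means, as a description that shares all libraries. Fbn2 was followed by Colgalt1, a collagen galactosyltransferase (Pearson r = 0.918 over 15 libraries in 10 mM and 0.916 over 16 in 1 mM glucose), though Colgalt1 ranged much less, from 7.59 in Cyto to 8.27 in WT in 10 mM glucose. Eln was followed by the scavenger receptor gene Colec12 (0.928 and 0.908) and Ltbp2 by Jazf1 (0.908 and 0.878) and the haem oxygenase gene Hmox1 (0.864 and 0.867). Hmox1 in 1 mM glucose had log2 means of 7.61 in KO, 8.17 in WT, 10.74 in Cyto and 9.04 for Nuc. It was picked for its correlation with Ltbp2, so a like place of Cyto and Nuc follows from the choice. The order of KO and WT differed, with Ltbp2 means of 3.98 in KO and 3.19 in WT. Fbn1 was followed by Igf2r (0.962 and 0.957) and Pappa (0.952 and 0.94). The next genes were Mrpl23-ps1 for Fbn2 (0.899 and 0.891) and Fam149a for Eln (0.93 and 0.896). Deviations of the libraries that correlated with transcript length enter these values.

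Other genes of elastic fibres were taken from a list of 49, of which 41 were measured in each medium: enzymes that cross-link elastin, microfibril-associated proteins, latent TGF-beta proteins, fibrillin-processing and ADAMTS proteins, fibulin relatives and partners, integrin receptors, and elastin-degrading proteases with their inhibitors. In 10 mM glucose 22 rose and 6 fell in WT against KO (median log2 fold change 0.38), 24 rose and 3 fell in Cyto (0.56) and 26 rose and 6 fell in Nuc (0.50), where 40.8%, 38.5% and 45.3% of all genes were called. At 1 mM, 17 rose and 8 fell in WT (0.18), 10 rose and 18 fell in Cyto (-0.16) and 17 rose and 8 fell in Nuc (0.12), where 58.2%, 64.7% and 60% of all genes were called. The counts in 1 mM glucose were thus near the share of all genes. The medians over all genes lay between -0.026 and 0. Of the 40 measured in both media, the fold change from KO was called lower in 1 mM than in 10 mM glucose for 12 in WT, 22 in Cyto and 20 for Nuc, beside 12.7%, 23.2% and 18.7% of all genes. It was called higher for 4, 3 and 6, beside 13.5%, 21.5% and 17.8% of all genes.

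Among the cross-linking enzymes, the lysyl oxidase gene Loxl2 rose under every construct, by 1.65, 2.54 and 3.01 in WT, Cyto and Nuc at 10 mM and by 1.75, 1.55 and 2.46 in 1 mM glucose. Lox rose by 1.15, 0.81 and 0.37 in 10 mM glucose. In 1 mM glucose it fell by 0.70 in Cyto and by 0.34 in Nuc, with 0.18 in WT (adjusted p = 0.0641). Loxl1 fell in 1 mM glucose by 0.41, 0.65 and 0.89. In 10 mM glucose Loxl3 fell by 0.35 in WT and by 0.58 in Cyto. Loxl4 there rose by 0.38 in WT and by 0.41 in Cyto and fell by 0.38 in Nuc. In 1 mM glucose the log2 mean of Loxl4 was 6.55 in KO and higher in all others, at 7.51 in WT, 7.57 in Cyto and 7.31 in Nuc. Genes of this family thus moved in opposite directions in both media.

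Microfibril-associated genes moved in both directions. Mfap5, a microfibril glycoprotein that binds fibrillins, rose in Nuc by 2.83 in 10 mM and 1.61 in 1 mM glucose, while in 1 mM glucose it fell by 1.14 in WT and by 1.1 in Cyto. Emilin2, an elastin microfibril interface protein, fell in Nuc by 2.81 and 3.79. In Cyto it fell by 2.75 in 1 mM glucose and was at -0.22 (adjusted p = 0.396) in 10 mM glucose. Emilin1 rose by 0.73, 0.72 and 0.70 in WT, Cyto and Nuc at 10 mM glucose.

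Of the 5 genes of latent TGF-beta, the ligands Tgfb1, Tgfb2 and Tgfb3 and the binding proteins Ltbp3 and Ltbp4, 3 rose in WT, 2 in Cyto and 4 for Nuc in 10 mM glucose (40.8%, 38.5% and 45.3% of all genes called) and none fell. Of all genes 20.6%, 19.6% and 22.7% were called higher in these comparisons. In 1 mM glucose 4 fell and none rose in Cyto (64.7% of all genes called, 33% lower), among them Tgfb3 by 1.06 and Tgfb2 by 0.53. There 2 rose and none fell in WT (58.2% called, 29.7% higher), and 1 rose and 2 fell in Nuc (60% called). Tgfb1 rose in WT by 0.81 and 1.1 and in Nuc by 1.11 and 0.93 in 10 mM and 1 mM glucose. In Cyto it rose by 0.89 in 10 mM and fell by 0.25 in 1 mM glucose. With 10 mM glucose the 6 integrin genes that encode fibrillin and fibulin receptors all rose, in Cyto as well as in Nuc, with Itgb3 at 1.13 in Cyto. In WT 5 of 6 rose. Of all genes 38.5%, 45.3% and 40.8% were called in Cyto, Nuc and WT, and 19.6%, 22.7% and 20.6% were called higher. In 1 mM glucose 4 of the 6 rose in WT, 2 rose and 3 fell in Cyto and 5 rose in Nuc (58.2%, 64.7% and 60% of all genes called). Called higher there were 29.7%, 31.7% and 30.5% of all genes, and 33% were called lower in Cyto. Itgb3 fell by 0.82 in Cyto in 1 mM glucose. Fn1, which encodes fibronectin, the partner on which fibrillin is laid down, rose by 0.76, 0.76 and 0.99 in WT, Cyto and Nuc at 10 mM and by 0.81, 0.49 and 0.82 in 1 mM glucose. It was 1 of 4 measured fibulin relatives and partners, which did not all rise. Vcan fell at 10 mM glucose by 0.44 (WT) and 0.91 (Nuc), with -0.08 for Cyto (adjusted p = 0.699). At 1 mM glucose no Vcan difference from KO was called. Hmcn2 rose under Nuc, by 0.81 at 10 mM and 0.63 at 1 mM glucose, and fell under Cyto by 0.39 at 1 mM.

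**Figure D4:**
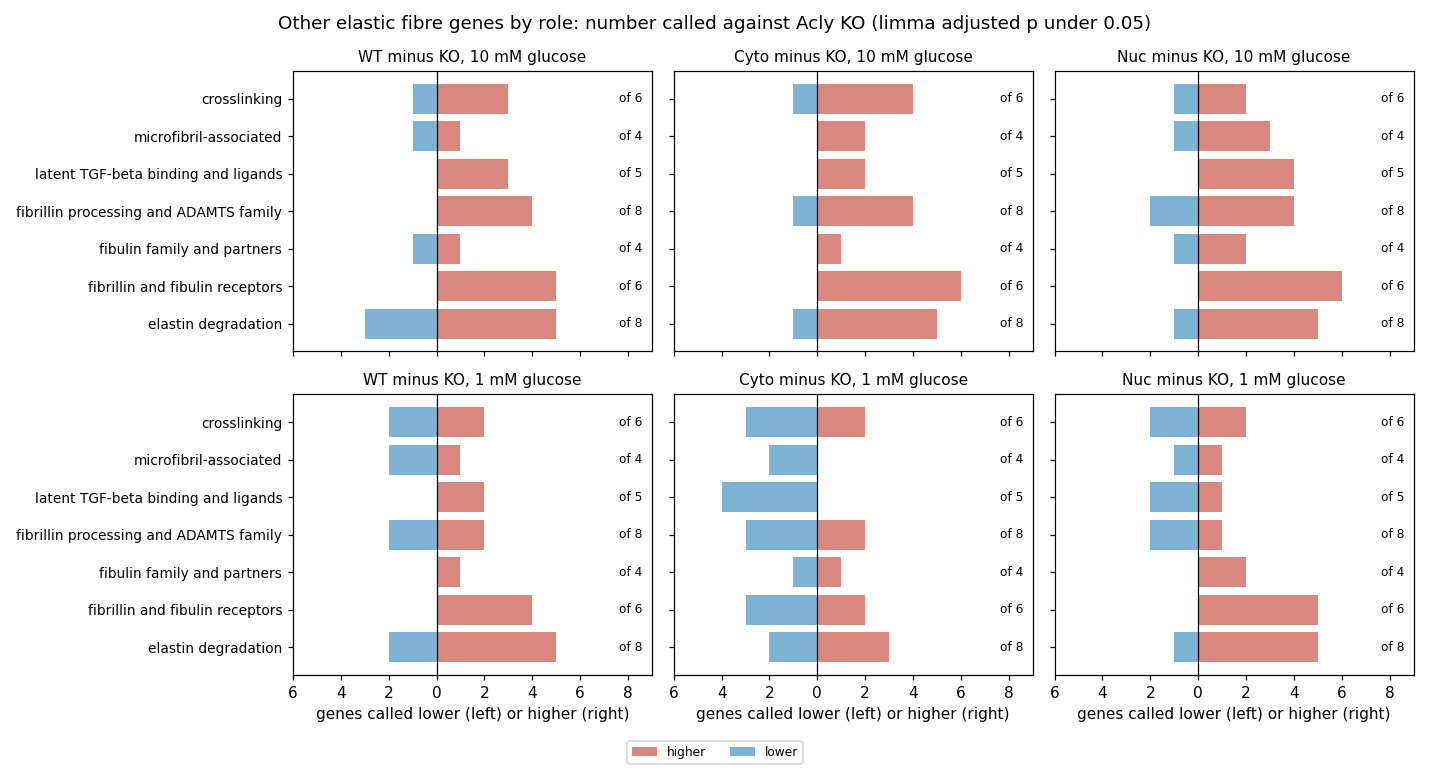
Number of other elastic fibre genes called against Acly KO by role (bars, lower to the left of 0 and higher to the right, of the number measured at the right edge), for WT, Cyto and Nuc at 10 mM glucose (top) and 1 mM glucose (bottom). Receptor genes called in the top row are all on the higher side, and in Cyto in 1 mM glucose 4 of 5 latent TGF-beta genes are on the lower side.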

How the data were processed

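RNA-seq of 31 libraries was used: 15 in 10 mM and 16 in 1 mM glucose. The authors deposited 1 table of log2 normalized values per gene and medium, close to log2 CPM with a small offset and a scaling between libraries. Per the submitters' processing notes the tools were kallisto, edgeR and limma and the build was GRCm39. Versions, settings and the minimum for listing a gene were not given in the sources used here. Values in every library bottomed out at -3.293 in 10 mM and -3.592 in 1 mM glucose. Depth is unknown, so no counting interval is given. In both tables, 1 entry without a symbol was left out, and no value was filtered or transformed.

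Each table was fitted with limma 3.58.1 in R 4.3.3, as means of the 4 groups with a prior variance that follows intensity, and a call was an adjusted p under 0.05. A group means the libraries of 1 construct in 1 medium as labelled. The 12 comparisons within media set each ACLY construct against KO and against the others. The 4 differences between media were fitted on the genes in both tables, as fold change at 1 mM minus fold change at 10 mM, in log2. Promoter windows of 8 members, all but Eln and Fbn2, were taken by symbol from a RefSeq table of GRCm38.p6. Sequence coordinates are therefore of that build and not of the tables' build.

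All members are named whatever their values. Other elastic fibre genes named are among up to 3 called per role with the smallest adjusted p in a comparison, or are given for other comparisons too. The members, lists and tests were chosen with earlier results of these data known. Alternatives were no variance trend, equal library medians, quantile normalization, 1 added on the linear scale, a mean log2 value of at least 0, library quality weights, a replicate block, the compared groups alone and each library left out. Removing the trend of each library on transcript length (a spline with 5 degrees of freedom, with lengths for 95.6% and 96.3% of genes) and leaving out all 10 mM libraries numbered 4 were chosen after seeing the data.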

Additional observations from a re-analysis of the deposited data

Results flagged for a closer look

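In 4 of 63 groups of 4 libraries tested, 1 library lay far from the other libraries of its group, where chance flags about 1 group in 20. WT number 2 in 1 mM glucose was low for Fbn1 (log2 expression 7.51) and for Fbn2 (5.72), and it is the library whose deviations followed transcript length. KO number 2 in 1 mM glucose was low for Fbln2 (9.92), and Cyto number 1 in 1 mM glucose was high for Efemp2 (7.91).

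The log2 fold change differed between the media in 15 of 36 tests on members, given as 1 mM minus 10 mM glucose with the limma adjusted p. Of all genes 26.2% were called for WT minus KO, 44.7% for Cyto minus KO, 36.5% for Nuc minus KO and 19% for Nuc minus Cyto. The shares of members for Cyto and Nuc minus KO were near those of all genes. For WT minus KO the differences were -2.04 for Eln (0.000244), -0.31 for Fbln5 (0.0024) and 0.45 for Ltbp1 (0.000485). For Cyto minus KO they were -0.77 for Fbln2 (7.56e-09), -0.49 for Fbln5 (6.2e-06), -0.47 for Efemp2 (0.00096) and 2.81 for Ltbp2 (2.22e-09). For Nuc minus KO they were -3.37 for Fbn2 (0.012), -0.26 for Fbln2 (0.00838), -0.34 for Fbln5 (0.000606) and 0.42 for Ltbp1 (0.000565). For Nuc minus Cyto they were -3.96 for Fbn2 (0.00946), 0.51 for Fbln2 (2.72e-05), 0.33 for Ltbp1 (0.0148) and -2.75 for Ltbp2 (1.54e-08). Of these, the Fbln2 value for Nuc minus KO was not called under quantile normalization (-0.18, 0.103), and the Ltbp1 value for Nuc minus Cyto was not called without the 10 mM libraries numbered 4 (0.24, 0.114). Medium and batch cannot be told apart in these differences.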

How the results depend on the processing

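Of 3150 values of single genes under alternatives, 2981 kept their direction and side of the threshold, 38 lost the call, 57 gained one and 74 turned in direction. Among counts, members called for Cyto minus KO in 10 mM glucose ran from 5 to 8 when 1 library was left out (8 with all), members called for Nuc minus WT in 1 mM glucose were 8 after removal of length trends (5 as reported), and for the difference between media library quality weights gave 5 members for WT minus KO and 3672 of all genes for Nuc minus Cyto (2261 as reported). Quantile normalization turned Fbln2 in 10 mM glucose for WT minus KO (-0.12), Cyto minus KO (-0.08) and Cyto minus WT (0.04), and in 1 mM glucose for WT minus KO Fbln2 (-0.02), Efemp2 (-0.14) and Ltbp1 (-0.07), and Acly for Cyto minus WT (0.27). It also turned differences between media of Fbln1 (-0.02 for WT minus KO, -0.02 for Cyto minus KO, -0.04 for Nuc minus KO, -0.02 for Nuc minus Cyto), Ltbp2 (0.03 for WT minus KO) and Eln (-0.01 for Nuc minus Cyto). Quality weights gave Efemp2 -0.06 for WT minus KO and Ltbp1 0.00 for Nuc minus Cyto in 1 mM glucose, and Ltbp2 0.07 for WT minus KO between media. Removal of length trends gave -0.03 for both of the former. Without the 10 mM libraries numbered 4, differences between media were 0.22 for Ltbp2 (WT minus KO), -0.04 for Fbln1 (Cyto minus KO) and -0.05 for Eln (Nuc minus Cyto), and equal medians gave 0.00 for Fbln1 (Cyto and Nuc minus KO). Leaving out 1 library turned values that were not called: Efemp2 for WT minus KO in 1 mM glucose (-0.06 to 0.06), Ltbp1 there (0.00 to 0.08) and for Nuc minus Cyto (-0.01 to 0.03), Ltbp2 for Cyto minus WT in 10 mM (-0.28 to 0.12), Fbn1 for Cyto minus WT (-0.11 to 0.06), Nuc minus Cyto (-0.19 to 0.05) and Nuc minus WT (-0.21 to 0.01) in 10 mM and Nuc minus WT in 1 mM (-0.26 to 0.07). Between media it did so for Eln (Nuc minus Cyto, -0.09 to 0.51), Fbln1 (Cyto minus KO, -0.02 to 0.09, Nuc minus KO, -0.02 to 0.09, Nuc minus Cyto, -0.05 to 0.04), Fbn1 (Cyto minus KO, -0.12 to 0.09), Fbn2 (Cyto minus KO, -0.06 to 1.66) and Ltbp2 (Nuc minus KO, -0.03 to 0.18, WT minus KO, -0.29 to 0.10). Except where a value names a library, the cause was not tested. Replicate numbers were not used to pair the samples in the main fit. Deviations of same-numbered libraries correlated by -0.03 to 0.36 in 10 mM and -0.18 to 0.14 in 1 mM glucose. For number 4 in 10 mM glucose all 6 pairs lay between 0.01 and 0.36. The deviations of these libraries had correlations of -0.38 to -0.09 with log transcript length. With the replicate block 158 of 160 gene values were as before and 2 gained a call (Efemp2 for WT minus KO in 10 mM glucose, 0.18, and for Nuc minus KO between media, -0.25), and members called for WT minus KO in 10 mM glucose were 7. Depth is unknown, and Fbn2 and Eln have values under 1 CPM.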

Other observations

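Elastin-degrading enzymes and their inhibitors, 8 of them measured, rose in 5 cases and fell in 3 in WT against KO in 10 mM glucose (40.8% of all genes called). There 5 rose and 1 fell in Cyto (38.5%) and in Nuc (45.3%). At 1 mM, 5 rose and 2 fell in WT (58.2%), 3 rose and 2 fell in Cyto (64.7%) and 5 rose and 1 fell in Nuc (60%). Mmp2, a gelatinase, was 1.58 higher on the log2 scale in WT and 0.81 higher in Nuc in 1 mM glucose, and it fell by 0.33 in Cyto (limma adjusted p = 0.000196). Ctsk, the elastin-cleaving cathepsin K, fell in WT by 0.95 in 10 mM and by 1.19 in 1 mM glucose. In Cyto it rose by 0.83 and 0.60, and in Nuc by 1.86 and 0.73. The membrane protease gene Mmp14 rose in 1 mM glucose by 0.68 in WT and 0.21 in Nuc, and stood at 0.02 in Cyto (adjusted p = 0.772). Both were called higher under every construct in 10 mM glucose: Mmp2 at 1.67 (WT), 0.15 (Cyto) and 1.84 (Nuc), Mmp14 at 1.15, 1.1 and 1.31. Mmp9 went the other way there, at -0.37 (WT), -1.41 (Cyto) and -2.25 (Nuc). With 1 mM glucose Mmp9 stood at -0.46, 0.39 and -1.71, all called. The counts mix enzymes with Timp inhibitor genes, of which Timp2 rose by 0.65 and Timp1 fell by 0.51 for WT in 10 mM glucose.

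Nuc and Cyto differed in several genes with the same sign in both media. Mfap5 was higher in Nuc by 2.02 in 10 mM and 2.70 in 1 mM glucose, and Mmp2 by 1.69 and 1.14. Emilin2 was lower in Nuc, at -2.59 and -1.04. Itgb3, the integrin beta 3 gene, was called with opposite signs, at -0.35 in 10 mM and 1.14 in 1 mM glucose.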
